A study of Mus musculus with 7 samples.

Results

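The tumor suppressor p53 is a transcription factor that is stabilised by DNA damage and other stress and raises genes that stop the cell cycle, remove the cell by apoptosis or switch p53 itself off again. This account follows 10 genes of that response and of the neighbouring brakes on the cell cycle in mouse colon tumors: Cdkn1a, Mdm2, Ccng1, Cdkn2a, Cdkn2b, Trp53inp1, Bbc3, Bax, Phlda3 and Eda2r. They are a list of gene names with no threshold on measured values, drawn up with earlier results of these data known, and are 10 of the 43346 genes of the count table, and all 10 passed the filter on low counts that left 15810 genes for testing. Of the 10, only Cdkn1a separated the groups of tumors, with less RNA in tumors of mice whose blood lacked 1 Dnmt3a allele, and that difference did not pass adjustment for the number of genes tested.

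The encoded proteins act at different steps. Cdkn1a encodes p21, which binds and blocks cyclin-dependent kinases (CDKs) and is the main route by which p53 halts the cycle. Cdkn2a encodes both p16Ink4a, a blocker of CDK4 and CDK6, and p19Arf, which frees p53 by binding Mdm2, and Cdkn2b encodes p15Ink4b, a second blocker of CDK4 and CDK6 that responds to TGF-β. Mdm2, a ubiquitin ligase, marks p53 for destruction and is itself raised by p53, so that the pair forms a feedback loop, and Ccng1 (cyclin G1) also acts in that loop. Bax opens the outer mitochondrial membrane, Bbc3 (Puma) is a BH3-only protein that releases it, and Eda2r is a receptor of the TNF receptor family. Trp53inp1 is a stress protein that promotes p53 activity and autophagy, and Phlda3 restrains the kinase Akt. In the gut, Cdkn1a marks epithelial cells that have left the cycle, and Cdkn2a is a gene that Polycomb proteins hold silent in young tissue.

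The tumors came from mice, C57BL6/J and 8 wk old by the labels and congenic wild-type CD45.1 by the methods, that were lethally irradiated and given bone marrow (BM) from donors with the Mx1-Cre transgene. In the Dnmt3a(+/-)-BM group (4 tumors) the donors also carried 1 floxed Dnmt3a allele, which was deleted in blood-forming cells after poly(I:C), while the Dnmt3a(+/+)-BM group (3 tumors) had Mx1-Cre donors with both alleles intact. All recipients, controls included, then received azoxymethane (AOM), a carcinogen that methylates guanine, once at 10 mg/kg, and then dextran sulfate sodium (DSS) at 3% in 3 cycles, which inflames the colon. The deletion was therefore confined to the graft, and the epithelium of every tumor was that of a wild-type host. Each sample was a whole tumor with its epithelium, stroma and leukocytes, so fewer cells of a type and less RNA per cell cannot be told apart. The comparison asks whether the tumors differ with the genotype of the graft. The labels begin with BMT18 or BMT8, and these prefixes are taken here as a pair of transplantation experiments. BMT18 holds Dnmt3a(+/+)-BM tumors 1 and 2 and Dnmt3a(+/-)-BM tumors 1 and 2. BMT8 holds Dnmt3a(+/+)-BM tumor 3 and Dnmt3a(+/-)-BM tumors 3 and 4. The count columns of Dnmt3a(+/-)-BM tumors 2, 3 and 4 also have an added 2 in their names. Those of Dnmt3a(+/-)-BM tumor 1 and the controls do not, and its meaning is not given in the sources used here.

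Total counts were 38472738 to 64314999 per tumor. Levels are given as CPM, the usual depth-normalised read count, on library sizes scaled by the trimmed mean of M-values (TMM). Several tumors stood apart from the rest of their group in cell type markers. The summed CPM of 5 markers of squamous epithelium (Krt5, Krt14, Krt13, Krt15 and Dsg3), which glandular colon lacks, was 20349 in Dnmt3a(+/+)-BM tumor 1 and 20986 in Dnmt3a(+/-)-BM tumor 1, against 3710 to 4970 in the other tumors except Dnmt3a(+/-)-BM tumor 2, where it was 255 and Krt5 was at 0.08. That last tumor also held the most of the 6 fibroblast markers (993 against 149 to 355 in the other 6 tumors) and of the 8 leukocyte markers (226 against 44.3 to 118). The 6 smooth muscle markers summed to 22.6 in Dnmt3a(+/+)-BM tumor 3 and to at least 243 elsewhere. The 8 epithelial markers (Epcam, Krt8, Krt18, Krt19, Krt20, Cdh1, Vil1 and Cldn7) had a summed CPM of 9542 to 32729 over the 7 tumors.

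The promoters show which of the 10 genes carry a p53 consensus sequence close to their start. The sequence is a 10-base unit, usually present as a pair, and both strands were searched in the 300 bases that run from 250 before to 50 after each RefSeq start on GRCm38.p6. RefSeq windows were matched for 9 of the 10 genes, 13 windows in all, and none was matched for Trp53inp1. A pair of units with at most 1 mismatch, with 0 or 1 base between them, was found in 3 of the 13 windows, those of Cdkn1a, Bax and Ccng1, against 58 of 32851 windows of the same length, 0.177%. An exact unit was found in 4 of the 13 windows, these 3 and that of Mdm2, which had no such pair, against 8.36% of all windows. Below are 100 bases around each match, on the strand of the gene, with the matched bases in capitals. They are shown because they hold an exact unit, which no other matched window of the 10 genes does, and the values of the 4 genes are given further down.
Cdkn1a promoter, chr17:29090879-29090978, plus strand: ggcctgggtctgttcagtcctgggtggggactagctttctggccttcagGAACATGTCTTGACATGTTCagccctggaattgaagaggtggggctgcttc
Bax promoter, chr7:45467049-45467148, minus strand: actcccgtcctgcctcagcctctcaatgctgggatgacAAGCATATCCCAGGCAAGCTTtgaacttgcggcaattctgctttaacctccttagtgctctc
Ccng1 promoter, chr11:40755422-40755521, minus strand: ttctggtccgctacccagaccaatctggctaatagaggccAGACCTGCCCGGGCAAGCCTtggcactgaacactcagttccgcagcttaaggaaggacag
Mdm2 promoter, chr10:117710885-117710984, minus strand: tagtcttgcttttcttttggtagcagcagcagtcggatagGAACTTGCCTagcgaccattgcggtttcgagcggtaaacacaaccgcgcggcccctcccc
The match lies 51 to 32 bases before the start in Cdkn1a, 212 to 192 in Bax, 195 to 176 in Ccng1 and 186 to 177 in Mdm2. A match of letters is a description of the sequence and not a measured binding site, and no match says only that the letters are not in that window. Among 27 other p53 target genes, 25 windows were matched for 21 genes, and 7 of these windows held an exact unit and 1 a pair with at most 1 mismatch.

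The 10 genes differed widely in level. Per kilobase of exon, the mean over 7 tumors was highest for Cdkn1a, at 72.1 CPM per kilobase, followed by Bax at 57.2, Phlda3 at 44.2, Cdkn2b at 31.5 and Ccng1 at 21.3. Trp53inp1 followed at 11.0, Cdkn2a at 9.76, Mdm2 at 8.22, Bbc3 at 4.16 and Eda2r at 0.54. Several neighbours in this order changed places between tumors: Cdkn1a was above Bax in 4 of 7 tumors, Phlda3 above Cdkn2b in 3 of 7, and Cdkn2a above Mdm2 in 3 of 7. By contrast, Ccng1 was above Trp53inp1, Mdm2 above Bbc3 and Bbc3 above Eda2r in 7 of 7. Behind these values stood at least 53 counts per tumor, in the case of Eda2r, and up to 19970, in that of Cdkn1a.

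**Figure D1:**
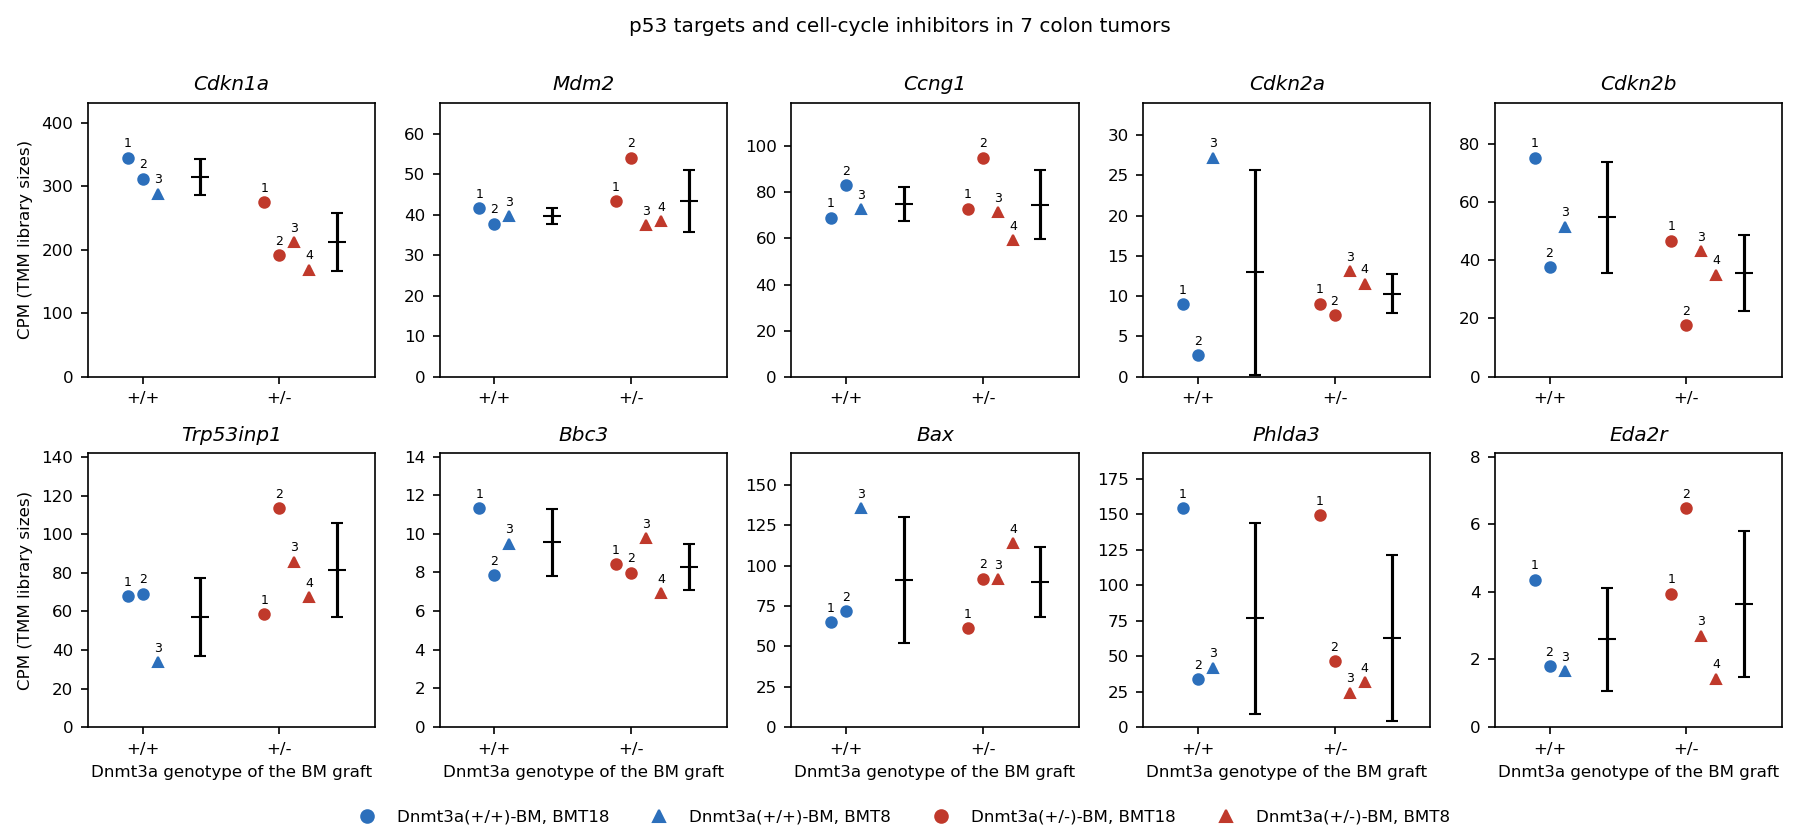
Level of each of the 10 genes in CPM (vertical axis, from 0) in the 3 Dnmt3a(+/+)-BM and 4 Dnmt3a(+/-)-BM tumors, numbered as in the labels, with circles for BMT18, triangles for BMT8 and the group mean ± SD beside the points. Cdkn1a is the panel in which all 4 Dnmt3a(+/-)-BM tumors, at 169 to 275, lie under all 3 controls, at 289 to 345.

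Between the groups, edgeR's quasi-likelihood test over 15810 genes called 0 of the 10 genes as changed, the rule being an adjusted p under 0.05 together with a log2 fold change beyond 1 in size, and it called 0.0% of all genes. At an unadjusted p under 0.05, 1 of the 10 passed, lower with Dnmt3a(+/-)-BM, where 5.2% of all genes passed in that direction and 11.0% in either, a share near that background. Groups did not overlap for 1 of the 10, again lower, against 6.32% of all genes that were lower and 6.12% that were higher without overlap. The log2 fold change, Dnmt3a(+/-)-BM over Dnmt3a(+/+)-BM, was above 0 for 3 genes and below 0 for 7, with a median of -0.11 over the 10 and 0.00 over all genes. DESeq2, which called 1.24% of the 24067 genes it tested, also called 0 of the 10. Scaling by library size alone in place of TMM moved the median of all genes to 0.21 and that of the 10 to 0.12, and under it Ccng1, Bax and Bbc3 changed sign.

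Cdkn1a, the p21 gene (chromosome 17, 29090976 to 29100727 on GRCm38), had less RNA in every Dnmt3a(+/-)-BM tumor than in any control. Its CPM was 345, 312 and 289 in Dnmt3a(+/+)-BM tumors 1 to 3. In Dnmt3a(+/-)-BM tumors 1 to 4 it was 275, 192, 212 and 169. The nearest tumors of the groups, Dnmt3a(+/-)-BM tumor 1 and Dnmt3a(+/+)-BM tumor 3, lay close together, and the other 3 Dnmt3a(+/-)-BM tumors were well below. The means were 212 ± 45.5 (SD, n = 4) and 315 ± 28.5 (SD, n = 3), so that the Dnmt3a(+/-)-BM mean was 67.2% of the control mean. This was a log2 fold change of -0.57 (standard error 0.20, 95% interval -1.03 to -0.12), with an unadjusted p of 0.0194 and an adjusted p of 0.406 from edgeR. Within experiments the difference was -0.49 in BMT18 and -0.60 in BMT8, the latter against a single control tumor. Leaving out single tumors gave values from -0.70 to -0.48, and without Dnmt3a(+/+)-BM tumor 1 the unadjusted p from edgeR was 0.0669. With library size alone the log2 fold change was -0.37, at an unadjusted p of 0.117. Without both tumors rich in squamous markers it was -0.63, at an unadjusted p of 0.0255 from edgeR. The summed epithelial markers overlapped between groups, at 9542 to 20907 with Dnmt3a(+/-)-BM and 15913 to 32729 in controls. Their log2 fold changes were below 0 for 8 of 8 markers, with a median of -0.57, beside -0.57 for Cdkn1a. At an unadjusted p under 0.05 from edgeR, 0 of the 8 passed. The part of these markers in the Cdkn1a difference was not tested. A gene on the opposite strand, AC167363.2, overlaps Cdkn1a and is not in the count table. The longest overlap of their exons is 261 bases, where the exons of Cdkn1a cover 3553 bases. Since the strand setting of the counting is not given in the sources used here, reads of AC167363.2 cannot be told apart from those of Cdkn1a.

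Mdm2 and Ccng1, which act in the p53 feedback loop and are p53 targets as Cdkn1a is, showed no such separation. Mdm2 (chromosome 10, 117688875 to 117710758) was at 41.6, 37.7 and 39.7 CPM in Dnmt3a(+/+)-BM tumors 1 to 3, and at 43.3, 54.1, 37.4 and 38.4 in Dnmt3a(+/-)-BM tumors 1 to 4. The groups overlapped, with Dnmt3a(+/-)-BM tumor 2 above all others. Its log2 fold change was 0.13, in an interval of -0.25 to 0.51 and an adjusted p of 0.820 from edgeR, and it was 0.027 without Dnmt3a(+/-)-BM tumor 2. Ccng1 (chromosome 11, 40748552 to 40755311) was at 68.9, 83.0 and 72.7 CPM in controls and at 73.0, 95.1, 71.4 and 59.3 with Dnmt3a(+/-)-BM. Here Dnmt3a(+/-)-BM tumors were both the highest and the lowest of the 7, and the log2 fold change was 0.00 (interval -0.42 to 0.42, adjusted p = 0.997 from edgeR). For these genes the intervals leave out a change of 1 log2 unit in either direction.

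The ratio of Cdkn1a counts to Mdm2 counts within a tumor does not depend on how libraries are scaled. It was 8.30, 8.26 and 7.27 in Dnmt3a(+/+)-BM tumors 1 to 3 and 6.34, 3.54, 5.67 and 4.39 in Dnmt3a(+/-)-BM tumors 1 to 4. The groups did not overlap in this ratio, which was formed after the values were seen and is given without a test. Against Ccng1 the same ratio was 5.01, 3.76 and 3.97 in controls and 3.76, 2.01, 2.97 and 2.84 with Dnmt3a(+/-)-BM. Here the groups overlapped, since Dnmt3a(+/-)-BM tumor 1, at 3.762, lay just above Dnmt3a(+/+)-BM tumor 2, at 3.755. Such ratios show unequal levels of a pair of genes and not which of them moved.

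The INK4 genes lie next to each other on chromosome 4, Cdkn2a at 89274471 to 89294653 and Cdkn2b at 89306299 to 89311039, and differed in how they varied. Cdkn2a was at 8.97, 2.67 and 27.2 CPM in Dnmt3a(+/+)-BM tumors 1 to 3 and at 9.06, 7.60, 13.1 and 11.5 in Dnmt3a(+/-)-BM tumors 1 to 4. The lowest and the highest of the 7 tumors were both controls, 10.2-fold apart, and the 4 Dnmt3a(+/-)-BM tumors lay between them. Its log2 fold change was -0.33 (interval -1.85 to 1.20, adjusted p = 0.898 from edgeR), and it turned from -0.81 without Dnmt3a(+/+)-BM tumor 2 to 0.82 without Dnmt3a(+/+)-BM tumor 3. The difference in mean log2 CPM over the same 7 tumors had the opposite sign, at 0.21. Within experiments the log2 fold change was 0.53 in BMT18 and -1.15 in BMT8, the latter against a single control tumor. The interaction of genotype with experiment was -1.67 on the log2 scale (standard error 0.87), with an unadjusted p of 0.108 from edgeR. The counts are per gene, so p16Ink4a and p19Arf, which start from different first exons, cannot be told apart.

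Cdkn2b was at 75.2, 37.5 and 51.5 CPM in controls and at 46.6, 17.6, 43.1 and 35.0 with Dnmt3a(+/-)-BM. Dnmt3a(+/-)-BM tumor 2 was the lowest and Dnmt3a(+/+)-BM tumor 1 the highest, and the remaining 5 tumors overlapped. Its log2 fold change of -0.62 was the most negative of the 10 genes, yet with a standard error of 0.36 and an interval of -1.46 to 0.21 it passed neither threshold (edgeR adjusted p = 0.554, unadjusted 0.124). It stayed below 0 with each tumor left out, from -0.83 to -0.33, the latter without Dnmt3a(+/+)-BM tumor 1, and was -0.81 in BMT18 and -0.40 in BMT8.

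**Figure D2:**
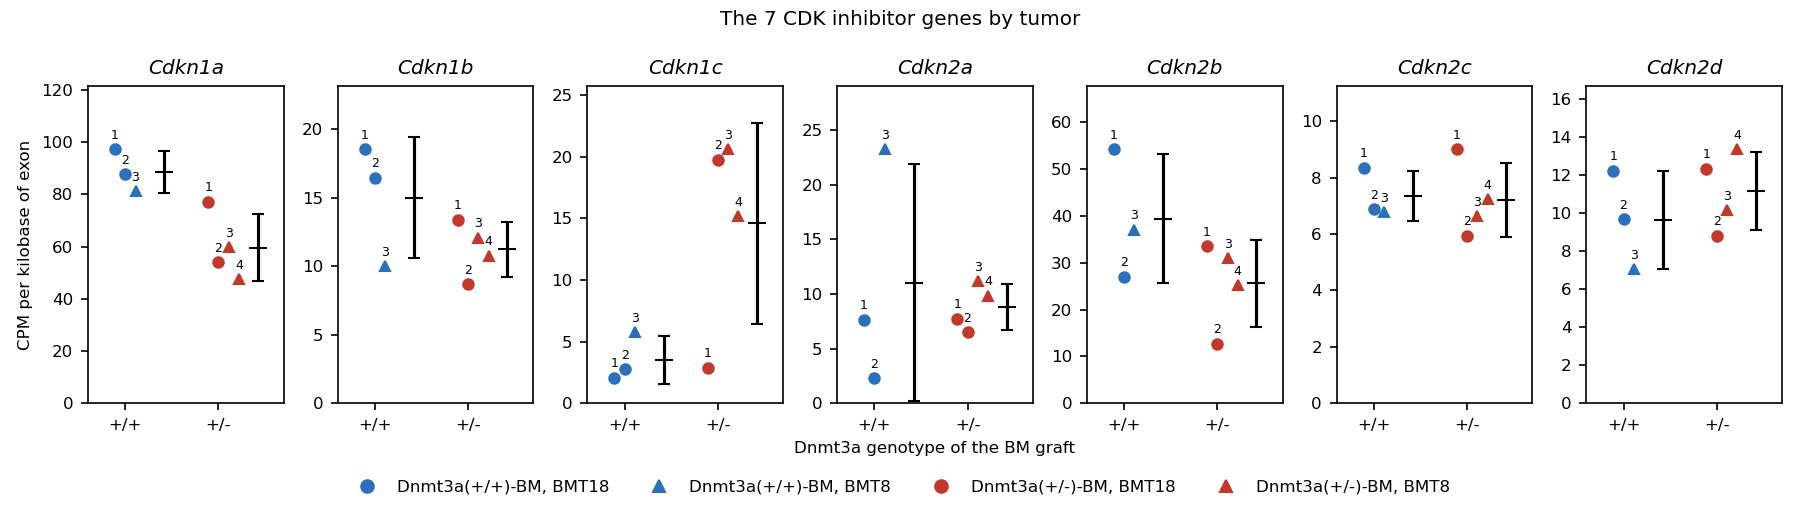
Level of the 7 CDK inhibitor genes in CPM per kilobase of exon (vertical axis, from 0, scaled per panel) by graft genotype, with tumor numbers, experiments as circles (BMT18) and triangles (BMT8), and the mean ± SD. Cdkn1a was the one panel with no overlap between groups, and Cdkn1c was high in 3 of the 4 Dnmt3a(+/-)-BM tumors.

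The other 4 CDK inhibitor genes covered both families, Cdkn1b (p27) and Cdkn1c (p57), which bind many CDKs as p21 does, and Cdkn2c (p18) and Cdkn2d (p19), which bind CDK4 and CDK6. Of these, 1 was higher with Dnmt3a(+/-)-BM at an unadjusted p under 0.05 and 0 were lower, against 5.83% and 5.2% of all genes. Their median log2 fold change was 0.09. Cdkn1c was at 4.27, 5.64 and 11.7 CPM in controls and at 5.89, 40.2, 42.0 and 30.9 in Dnmt3a(+/-)-BM tumors 1 to 4. Thus 3 of the 4 Dnmt3a(+/-)-BM tumors were above every control, and tumor 1 was within the control range. On the log2 scale the difference was 2.05 (standard error 0.68). The unadjusted p was 0.0175 and the adjusted p 0.399 from edgeR, and DESeq2 called it at an adjusted p of 0.0477. Without Dnmt3a(+/+)-BM tumor 2 the unadjusted p from edgeR was 0.0606. Endothelial markers summed to 10.0 to 20.9 CPM in controls and 21.0 to 105 with Dnmt3a(+/-)-BM. They were higher at an unadjusted p under 0.05 for 4 of 5 genes, against 5.83% of all genes. Their part in the Cdkn1c difference was not tested. Cdkn1b was at -0.42, Cdkn2c at -0.03 and Cdkn2d at 0.21 on the log2 fold change scale, and all 3 overlapped between groups.

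The apoptosis genes did not separate the groups. Bax (chromosome 7, 45461697 to 45466898) was at 64.8, 71.9 and 136 CPM in Dnmt3a(+/+)-BM tumors 1 to 3 and at 61.3, 91.8, 91.5 and 114 in Dnmt3a(+/-)-BM tumors 1 to 4. The range in controls held all but 1 Dnmt3a(+/-)-BM tumor, and the log2 fold change was -0.02 (interval -0.74 to 0.70, adjusted p = 0.991 from edgeR), or 0.39 without Dnmt3a(+/+)-BM tumor 3. Bax shares 140 bases of exon with Gm45808 on the same strand, a gene that is not in the count table and so has no counts of its own. Bbc3 (chromosome 7, 16308393 to 16318205) was lower in level and steadier, at 11.3, 7.85 and 9.48 CPM in controls and 8.43, 7.99, 9.79 and 6.92 with Dnmt3a(+/-)-BM. Its groups overlapped, with a log2 fold change of -0.21 (interval -0.75 to 0.34, adjusted p = 0.792 from edgeR), or -0.069 without Dnmt3a(+/+)-BM tumor 1.

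Eda2r (chromosome X, 97333840 to 97377216) was the lowest of the 10 genes, at 4.35, 1.80 and 1.65 CPM in controls and 3.94, 6.48, 2.70 and 1.43 with Dnmt3a(+/-)-BM. Tumor 1 of each group was among the 3 highest, and Dnmt3a(+/-)-BM tumor 2 was the highest of all. A log2 fold change of 0.49 had an interval of -0.89 to 1.86 (adjusted p = 0.810 from edgeR), and was 0.076 without Dnmt3a(+/-)-BM tumor 2. It was 1.07 without Dnmt3a(+/+)-BM tumor 1, and also without both tumors rich in squamous markers.

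**Figure D3:**
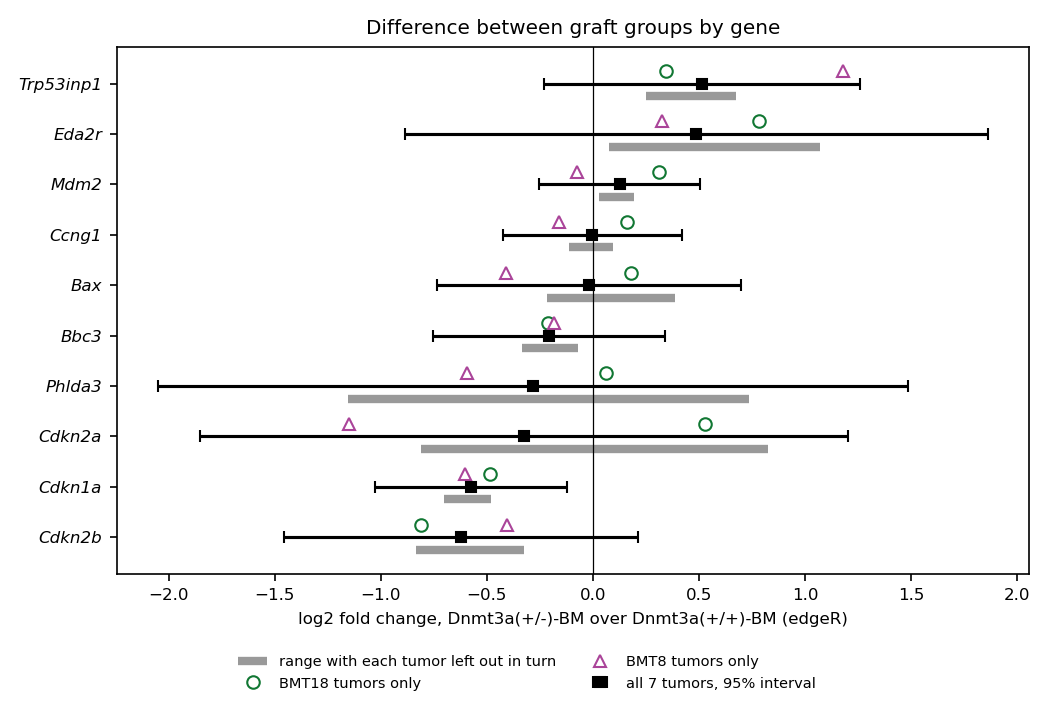
Log2 fold change of each of the 10 genes, Dnmt3a(+/-)-BM over Dnmt3a(+/+)-BM, from edgeR (horizontal axis). Black squares with bars are the estimate over 7 tumors and its 95% interval, grey bars the range with each tumor left out, and open symbols the values within BMT18 (circles) and BMT8 (triangles). The interval of Cdkn1a, -1.03 to -0.12, is the one that does not include 0, and those of Phlda3 and Cdkn2a are the widest.

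Trp53inp1 and Phlda3 varied with single tumors. Trp53inp1 (chromosome 4, 11156431 to 11174379) was at 67.9, 69.3 and 33.7 CPM in Dnmt3a(+/+)-BM tumors 1 to 3 and at 58.6, 114, 85.9 and 67.3 in Dnmt3a(+/-)-BM tumors 1 to 4. Dnmt3a(+/+)-BM tumor 3 was the lowest of the 7, and Dnmt3a(+/-)-BM tumors 2 and 3 were above every control. Its difference of 0.51 on the log2 scale (standard error 0.32, interval -0.23 to 1.26) had an unadjusted p of 0.150 and an adjusted p of 0.581 from edgeR. It was 0.35 in BMT18 and 1.18 in BMT8 (adjusted p = 0.139 from edgeR), and 0.25 without Dnmt3a(+/+)-BM tumor 3, the single control of BMT8.

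Phlda3 (chromosome 1, 135766119 to 135769136) fell into a high pair and a low remainder. It was at 155, 33.6 and 41.8 CPM in Dnmt3a(+/+)-BM tumors 1 to 3 and at 150, 46.6, 24.2 and 31.5 in Dnmt3a(+/-)-BM tumors 1 to 4. The high pair was tumor 1 of each group, the same tumors that were rich in squamous markers. Of the remainder, the highest was Dnmt3a(+/-)-BM tumor 2, which had the lowest sum of squamous markers. The part of squamous cells in the level of Phlda3 was not tested. The log2 fold change was -0.28 (interval -2.05 to 1.48, adjusted p = 0.927 from edgeR), and moved from -1.16 without Dnmt3a(+/-)-BM tumor 1 to 0.74 without Dnmt3a(+/+)-BM tumor 1. With both left out it was -0.12.

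**Figure D4:**
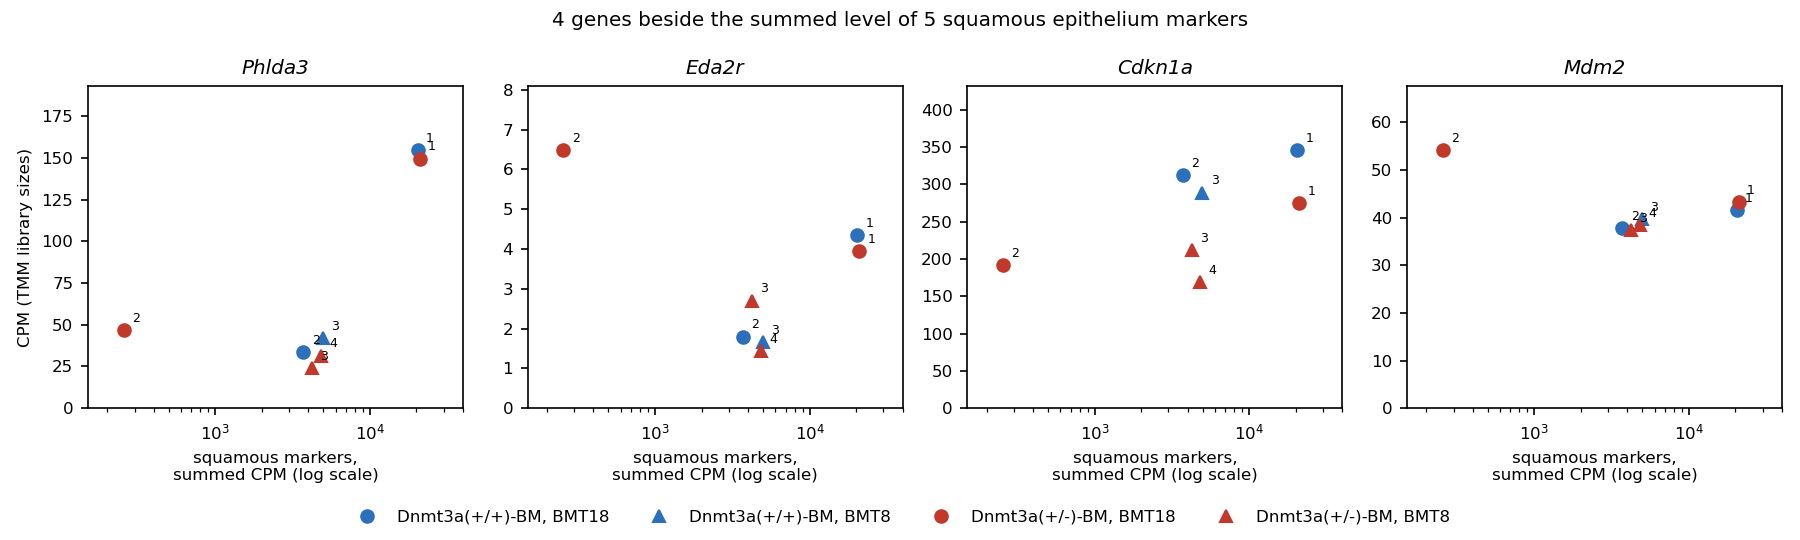
CPM of Phlda3, Eda2r, Cdkn1a and Mdm2 (vertical axes, from 0) against the summed CPM of 5 squamous epithelium markers (horizontal axis, log scale) in each tumor, numbered within its group. Phlda3 was at 155 and 150 in the tumors with the most squamous marker RNA and at 24.2 to 46.6 in the other 5.

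Whether the difference between graft groups itself differed between experiments was tested with an interaction term over all 15810 genes. At an unadjusted p under 0.05, 0 of the 10 genes passed in edgeR, where 4.62% of all genes did, and 0 genes of the table passed after adjustment. BMT8 alone, with 1 control tumor whose spread is assumed to be that of the others, gave an unadjusted p under 0.05 for 2 of the 10, Cdkn2a and Trp53inp1, where 10.5% of all genes passed, and BMT18 alone for 0, where 9.46% did.

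p53 itself and its regulators form the input to the p53 targets among these genes. Trp53, the p53 gene, was at 55.9, 50.7 and 67.5 CPM in Dnmt3a(+/+)-BM tumors 1 to 3 and at 68.1, 94.2, 82.7 and 95.4 in Dnmt3a(+/-)-BM tumors 1 to 4. The groups did not overlap, though Dnmt3a(+/-)-BM tumor 1 and Dnmt3a(+/+)-BM tumor 3 were nearly equal. On the log2 scale Trp53 differed by 0.55 (standard error 0.17), at an unadjusted p of 0.0140 and an adjusted p of 0.389 from edgeR, and the unadjusted p was 0.0600 without Dnmt3a(+/+)-BM tumor 2. The direction is the opposite of that of Cdkn1a. Of the 12 genes in the list of p53 and its regulators, 4 were higher and 0 lower at an unadjusted p under 0.05, against 5.83% of all genes higher and 5.2% lower, and the median log2 fold change was 0.35. Beside Trp53 these were the kinase genes Chek1 (0.68) and Prkdc (0.55), and Trp53bp1 (0.51), whose product binds damaged chromatin. Without Dnmt3a(+/+)-BM tumor 1 the unadjusted p from edgeR was 0.103 for Chek1, 0.0840 for Prkdc and 0.105 for Trp53bp1. Without both tumors rich in squamous markers, 2 genes of the list were higher. Mdm4, the partner of Mdm2 in restraining p53, had a log2 fold change of 0.03. RNA levels do not measure p53 protein, which is set largely by its stability.

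Among 27 other p53 targets, 0 were higher and 3 lower at an unadjusted p under 0.05, beside the 5.83% and 5.2% of all genes. Their log2 fold changes were above 0 for 14 and below 0 for 13, with a median of 0.08. The 3 were Trp53i11 (-0.75, unadjusted p = 0.00405 and adjusted p = 0.361 from edgeR), Btg2 (-0.56), which slows proliferation, and Triap1 (-0.37). Btg2 was at -0.27 without Dnmt3a(+/+)-BM tumor 2 (unadjusted p = 0.172 from edgeR), and Triap1 had an unadjusted p of 0.111 without Dnmt3a(+/+)-BM tumor 1. Trp53i11 was at 92.6, 131 and 114 CPM in controls and at 65.0, 55.4, 64.7 and 82.6 with Dnmt3a(+/-)-BM, so that the groups did not overlap. With library size alone 1 gene of this list was higher and 1 lower at that threshold, and without Dnmt3a(+/-)-BM tumor 2, 0 were higher and 1 lower. The next genes by p were Zmat3 (0.49) and Pmaip1 (-0.34), the Noxa gene, at unadjusted p of 0.0508 and 0.0636 from edgeR. The highest log2 fold change of the list, 2.09 for Gdf15 (unadjusted p = 0.0677 from edgeR), rested on Dnmt3a(+/-)-BM tumor 2, at 12.7 CPM. Dnmt3a(+/-)-BM tumors 1, 3 and 4 were at 1.07, 1.44 and 1.30, and controls at 0.89, 1.00 and 1.01. The groups thus did not overlap, by a small margin at a low level. The lowest was -0.97 for Sfn (unadjusted p = 0.137 from edgeR), with overlap between groups. Gdf15, a secreted stress factor, and Sfn are named here after their values were seen.

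The next 3 lists cover G1 genes, proliferation markers and Polycomb genes. At the unadjusted threshold, 5.83% of all genes passed as higher and 5.2% as lower. Of 14 genes for G1 cyclins, their CDKs, Rb and E2F proteins, 0 were higher and 1 lower at an unadjusted p under 0.05, E2f2 (-0.48), with a median of 0.10, and with library size alone 4 were higher and 0 lower. Of 10 proliferation markers, all 10 had a log2 fold change above 0, as did 7936 of all 15810 genes, and their median was 0.26. Of these markers 1 passed the same threshold, Mcm2 (0.62), a subunit of the replicative helicase. Of 8 Polycomb genes, 2 passed, Ezh2 (0.61), the methyltransferase that marks silent genes such as Cdkn2a, and Suz12 (0.38), both higher, with a median of 0.01. Each of these calls was lost with 1 tumor left out, at an unadjusted p from edgeR of 0.125 for Mcm2 and 0.0855 for Ezh2 without Dnmt3a(+/+)-BM tumor 1, and of 0.0777 for E2f2 and 0.140 for Suz12 without Dnmt3a(+/+)-BM tumor 3. None of these genes passed adjustment in edgeR, where the lowest adjusted p over these 3 lists was 0.406.

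In the Bcl2 family, 11 of 12 genes were tested, apart from Bax and Bbc3, with a median log2 fold change of -0.03. At an unadjusted p under 0.05, 2 were higher and 0 lower, against 5.83% and 5.2% of all genes. Bmf, a BH3-only gene like Bbc3, was at 17.9, 14.8 and 10.9 CPM in controls and at 17.6, 53.8, 52.1 and 37.1 with Dnmt3a(+/-)-BM. For a log2 fold change of 1.47, edgeR gave an adjusted p of 0.361 where DESeq2 gave 0.0275. As for Cdkn1c, tumors 2 to 4 were above every control and tumor 1 was not. Tumors 2 to 4 are also those with an added 2 in their column names, and the part of this was not tested. Bcl2l11, which encodes the BH3-only protein Bim, was the other gene (1.18), and its value was 0.65 without Dnmt3a(+/-)-BM tumor 2, and its unadjusted p from edgeR 0.125 without Dnmt3a(+/+)-BM tumor 3.

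**Figure D5:**
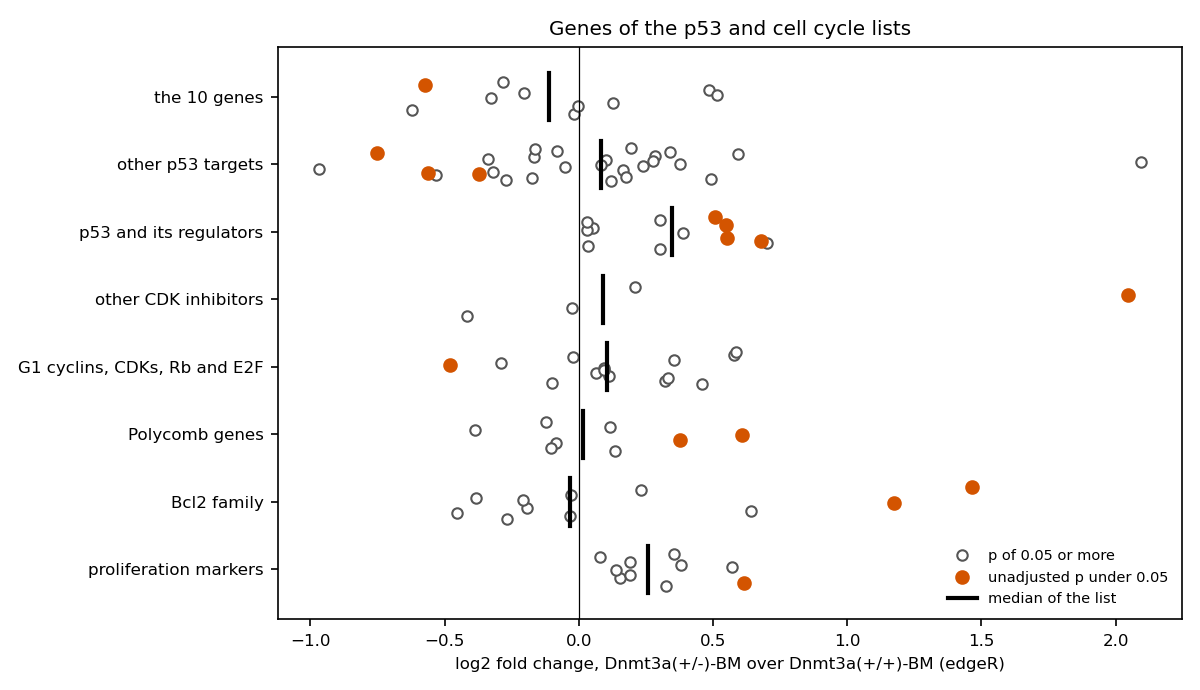
Log2 fold change from edgeR (horizontal axis) of each tested gene of the 10 and of 7 further lists (rows). Filled points have an unadjusted p under 0.05, and black bars are list medians. The medians run from -0.11 for the 10 genes to 0.35 for p53 and its regulators.

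Genes whose profile over the 7 tumors was most like that of a member were sought among 15721 tested genes with the Pearson correlation of log2 CPM, as a description only, since the tumors share group, experiment and cell content. For Cdkn1a these were Il17rc, a receptor chain for interleukin-17 (r = 0.990), Lrrc8e, a subunit of a volume-regulated anion channel (r = 0.989), and Pla2g3, a secreted phospholipase (r = 0.986). For Mdm2 they were Odc1, the first enzyme of polyamine synthesis (r = 0.987), the collagen gene Col12a1 (r = 0.983) and the sulfatase gene Sulf1 (r = 0.979). For Cdkn2a they were Glis2 (r = 0.965), Gm10132 (r = 0.963) and Kazn (r = 0.945).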

How the data were processed

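RNA of 7 whole colon tumors was sequenced after poly(A) selection with a directional kit. Per the submitters' processing notes and the methods, reads were trimmed with Trimmomatic, aligned to mm10 with STAR and quantified with RSEM. The authors deposited expected counts from RSEM, 1 value per gene and tumor, all whole (100%) and not normalized. Columns were matched to tumors through the labels. Positions are from GENCODE M21 and promoters from RefSeq. Counts were tested with edgeR 4.0.16 in R 4.3.3 (TMM, filterByExpr, quasi-likelihood, two-sided, Benjamini-Hochberg). DESeq2 1.42.0, other scalings and filters, a term for the experiment, a block by replicate number and fits without 1 tumor were alternatives. The steps were tested on simulated data. The tumors are labelled as biological replicates. Their numbers were not taken to pair them, given the correlations of same-numbered tumors across the groups. These were 0.57, 0.07 and -0.04, from the log2 CPM of each gene as a deviation from its group mean. The 10 genes and all gene lists were chosen with earlier results of these data known. Named genes were the 10, the genes of lowest p per list (up to 5), Trp53, Mdm4, and the 3 most similar profiles of Cdkn1a, Cdkn2a and Mdm2. The labels give recipients as 8 wk old, and the methods a younger age. The result of 1 gene list is not reported here.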

Additional observations from a re-analysis of the deposited data

Results flagged for a closer look

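Among 64 values examined in the group of 4 Dnmt3a(+/-)-BM tumors, 4 had 1 tumor set apart from the other 3 by a gap that Dixon's test at 95% would mark, where chance gives about 3.2. Groups of 3 tumors were not examined. None of the 4 values was that of 1 of the 10 genes. Trp53bp1 was at 34.0 CPM in tumor 2 and at 21.7 to 22.9 in the others, and its log2 fold change of 0.51 was 0.35 without that tumor. Bmi1, a Polycomb gene, was at 27.7 CPM in tumor 1 and at 31.6 to 32.0 in the others. The summed CPM of p53 and its regulators was 577 in tumor 1 and 395 to 418 in the others. Trp63, a p53 relative of squamous epithelium that was at 196 CPM in tumor 1, 0.02 in tumor 2, 43.6 in tumor 3 and 45.7 in tumor 4, made up the gap, since without it the sums were 382 in tumor 1 and 351 to 395 in the others. Trp63 was also high, at 144 CPM, in Dnmt3a(+/+)-BM tumor 1, the other tumor rich in squamous markers. The summed CPM of the fibroblast markers was 993 in tumor 2 and 223 to 355 in the others, and the median log2 fold change of these markers was 1.09 with that tumor and 0.24 without it.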

How the results depend on the processing

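Among 170 alternative values for the 10 genes, 23 changed sign, and 4 genes, Cdkn1a, Cdkn2b, Trp53inp1 and Eda2r, had none that did. Apart from these fits, the difference in mean log2 CPM was 0.21 for Cdkn2a and 0.029 for Bax, opposite in sign to their edgeR log2 fold changes. Without 1 of the tumors, Ccng1 ranged from -0.11 to 0.093, Cdkn2a from -0.81 to 0.82, Bax from -0.21 to 0.39 and Phlda3 from -1.16 to 0.74 on the log2 scale. Library size alone gave 0.22 for Ccng1, 0.22 for Bax and 0.019 for Bbc3. BMT18 alone gave 0.16 for Ccng1, 0.53 for Cdkn2a, 0.18 for Bax and 0.062 for Phlda3, and BMT8 alone -0.073 for Mdm2. Ccng1 was 0.0081 with DESeq2, 0.012 with its size factors in edgeR, 0.012 with at least 10 counts in every tumor, 0.0049 without a filter and 0.025 with the experiment as a covariate. A block by replicate number compares same-numbered tumors, so Dnmt3a(+/-)-BM tumor 4, which has no control of its number, does not enter the difference. With this block, Ccng1 was 0.084 and Cdkn2a 0.14. In that fit edgeR called 0 genes, with 1885 at an unadjusted p under 0.05 against 1744 without the block. Of the 10 genes, 2 (Cdkn1a and Cdkn2b) had an unadjusted p under 0.05 with the block. The same count of the 10 genes was 1 as reported, 0 with library size alone, 0 in BMT18, 2 in BMT8 and 0 to 1 with a tumor left out, and it was 1 without both tumors rich in squamous markers, an alternative chosen after seeing the data. All genes called were 0 as reported, 299 with DESeq2 and 146 in BMT8, and 0 in each fit with a tumor left out. The causes of these changes were not tested. With 4 tumors against 3, the interval of Cdkn1a spans 0.12 to 1.03 log2 units below 0, and those of Phlda3 and Cdkn2a include a change of 1 log2 unit in either direction, which was not detectable at this spread.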
